A study of Mus musculus with 20 samples.

Results

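Dendritic cell progenitors exposed to TGF-β1 for 24 h were set against the same kind of cells exposed for 4 h. The cells were common dendritic cell progenitors (CDP), amplified in culture from C57BL/6 mouse bone marrow, and every array carried 1 RNA sample. By their labels, 4 of the 20 arrays of the series belong to this comparison, 2 at 24 h and 2 at 4 h, and the 2 arrays of untreated CDP (0 h) show when a gene moved. The 8 h and 12 h arrays of the same culture series, 2 each, lie between. A separate set of arrays held untreated CDP, conventional dendritic cells (cDC) and plasmacytoid dendritic cells (pDC), both grown from such progenitors, together with multipotent progenitors (MPP), again with 2 arrays per group.

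All the cells of the 5 times came from bone marrow of 1 strain and carried no engineered allele by the labels. How much TGF-β1 was added, and how many mice or cultures were used, is not stated in the labels. Nothing says that replicates were separate cultures, and the p-values therefore reflect only the spread among these arrays, which may be technical. No untreated cells were kept in parallel to 24 h among these samples, and TGF-β1 and hours in culture therefore cannot be told apart. In RNA of whole cultures, fewer cells of a type and less RNA per cell cannot be told apart either.

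TGF-β1 binds a receptor pair formed by Tgfbr2 and Tgfbr1, which phosphorylates Smad2 and Smad3, and these move with Smad4 to the nucleus and act on transcription. Early targets include inhibitors of the pathway itself, such as Smad7, Ski and Skil, so that the first response is followed by feedback. In the dendritic lineage TGF-β1 is known for its part in Langerhans cells, the dendritic cells of the epidermis, which carry E-cadherin and depend on this cytokine. Dendritic cells take up antigen, load peptides on MHC class II molecules and present them to T cells.

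Values are log2 probe set intensities as deposited, 1 probe set per gene, and differences are log2 units at 24 h minus 4 h with limma's standard error (SE). A gene was called at a Benjamini-Hochberg adjusted p under 0.05 over all 12655 genes tested. Where both arrays of the lower time were under 5, near the lower end of the scale, 5 stood in for that time and the fold is written "at least". The arrays of CDP_4h and CDP_24h spread more than those of CDP_0h: the replicate SD was 0.370 at 24 h and 0.509 at 4 h, against 0.154 at 0 h. It was 0.205 at 8 h and 0.315 at 12 h. The limma fit pooled the spread of all 5 times, so its SE can understate the spread of the 4 h and 24 h arrays. Replicate 1 at 4, 12 and 24 h had low 5′ signal, with a Gapdh 3′ minus 5′ difference of 2.09, 2.61 and 2.78, while the other 7 arrays of the series lay between 0.01 and 0.10. The part of this signal loss in the results was not tested. Some of the counts that move, though not all, are also given without these 3 arrays. Without them 4 h and 24 h keep 1 array each, and the spread of that fit comes from the 0 h and 8 h arrays alone. Leaving out a single array likewise leaves 1 array at its time. The 11 marker genes of cultured CDP were all measured above 5 in the series. Their summed level, as log2 of the sum of unlogged intensities, was 15.19 to 15.27 at 24 h and 14.72 to 14.97 at 4 h.

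At 24 h, 963 genes were called higher and 662 lower than at 4 h, 7.61% and 5.23% of the genes tested. Of these, 598 were at least 2-fold higher and 409 at least 2-fold lower, and the median of all genes was -0.002. By comparison 82 genes were called at 4 h against 0 h (0.648%), 72 higher (0.569%) and 10 lower (0.079%), and 2438 at 24 h against 0 h (19.3%), 1371 higher and 1067 lower. These 3 comparisons share arrays, so their counts are not independent. The replicate numbers pair the arrays by the rule used here. At 4 h and 24 h, however, replicate 1 is also the array of low 5′ signal, and pairing and signal loss cannot be told apart there. With the replicate number as a block, 3026 genes were called between 24 h and 4 h, 1714 higher (13.5%) and 1312 lower (10.4%). The list counts below are to be read beside these shares of all genes, which are 7.61% and 5.23% without the block. The block gave 153 genes at 4 h against 0 h and 3810 at 24 h against 0 h. Single arrays also moved the count at 24 h against 4 h. It was 711 without replicate 2 of 24 h, 823 without replicate 1 of 24 h, 2764 without replicate 2 of 4 h, and 1019 without either replicate of 0 h. When only the 4 arrays of the comparison entered the limma fit, 0 genes were called and 1913 had an unadjusted p under 0.05. With each array centred on its median the count was 789 higher and 811 lower, and after quantile normalization 839 higher and 785 lower. The share of calls that were higher is thus 59.3% as deposited, 49.3% centred and 51.7% after quantile normalization.

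Of the genes called between 24 h and 4 h, 608 of 1625 met a rule for late change. A gene was counted as late only when 24 h differed from both 4 h and 0 h by at least 1 log2 unit, both called, while 4 h lay within 0.5 of 0 h. There were 339 late genes that rose and 269 that fell. Persistent genes, which had moved at 4 h and stayed within 0.5 of that level, numbered 16 higher and 4 lower. Growing genes, called in the same direction at both steps, numbered 31 higher and 1 lower. A single gene rose at 4 h and was back within 0.5 of the untreated level at 24 h, and 0 genes turned to the opposite side of the untreated level. The classes rest on limma calls at 24 h against 4 h and 0 h and are described, not tested.

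The median level of the 339 late genes that rose was 7.14, 7.21, 7.80, 8.19 and 8.87 at 0, 4, 8, 12 and 24 h. That of the 269 that fell was 9.91, 9.79, 9.31, 9.03 and 8.33. Both medians had thus begun to move by 8 h. All 608 of these genes kept their class with the replicate block, where the counts grew to 400 and 333. The block leaves every difference as it is and changes only the SE, whose median was 0.182 in place of 0.224. Keeping the class is therefore no separate check. Without the 3 arrays of low 5′ signal 1 array is left at 4 h and 1 at 24 h. That fit cannot test the classes against the spread at those times. Leaving out a 0 h array lowered the counts most, to 225 for the genes that rose without either replicate, and to 165 and 142 for those that fell without replicate 1 and replicate 2.

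**Figure D1:**
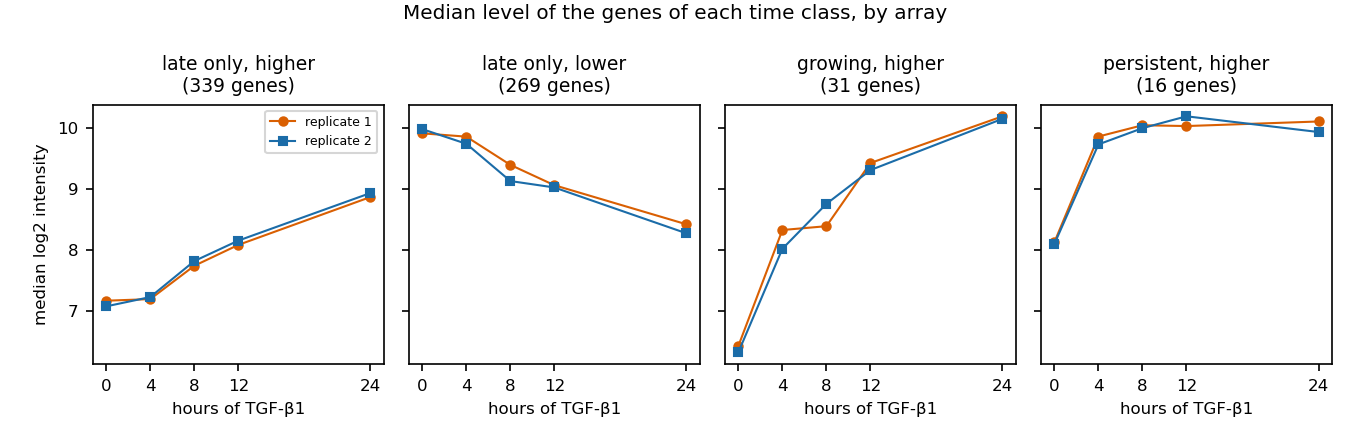
Median log2 intensity (vertical axis) of the genes of 4 time classes against hours of TGF-β1 (horizontal axis), with replicate 1 as circles and replicate 2 as squares. The late classes of 339 and 269 genes were near their 0 h level at 4 h, while the 31 growing and 16 persistent genes had already moved by then.

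The largest increases reached levels far above those of 4 h. Gna14, a G protein alpha subunit, had 10.25 and 10.74 at 24 h, against 4.73 and 4.40 at 4 h, which makes it at least 45.1-fold higher (5.93, SE 0.26, adjusted p = 6.2e-05 by limma). Itgae, the integrin alpha E chain (CD103) that binds E-cadherin, had 11.60 and 11.16 at 24 h, against 6.30 and 5.17 at 4 h, a 50.1-fold difference (adjusted p = 0.0012). Myrip, which links Rab27-coated vesicles to myosin, had 10.54 and 11.06 at 24 h, against 5.50 and 5.14 at 4 h (5.48, SE 0.24, adjusted p = 6.2e-05). In each of the 3 genes the 24 h arrays lay more than 4 log2 units above both 4 h arrays. Prkcb, protein kinase C beta, followed with 11.87 and 12.20 at 24 h, against 7.53 and 6.89 at 4 h. Cd7, a surface receptor of lymphoid cells, had 10.86 and 12.43 at 24 h, against 6.19 and 7.53 at 4 h. Aif1, an actin-bundling protein of myeloid cells, had 10.12 and 10.90 at 24 h, against 5.39 and 6.36 at 4 h. These 3 genes rose by 4.83, 4.78 and 4.64. The others of the 12 largest increases were Cldn1, Cdh1, Qpct, St8sia6, Hepacam2 and Ifnlr1, with differences of 4.12 to 4.76. All 12 kept their call when any single array of 0, 4 or 24 h was left out.

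**Figure D2:**
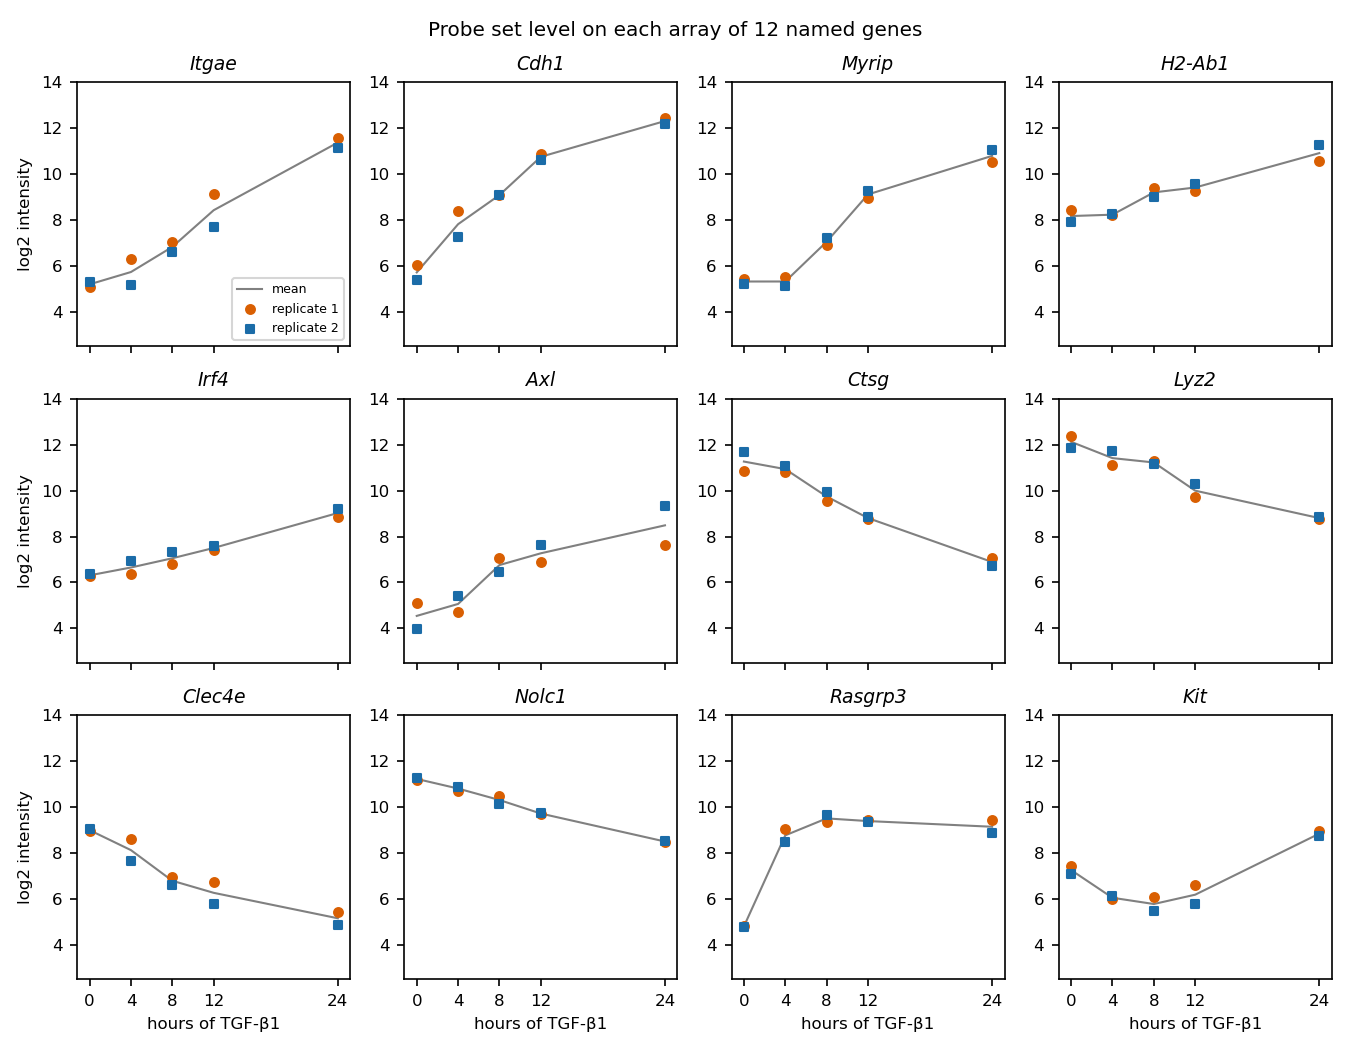
Log2 intensity (vertical axis) of 12 named genes on every array of the TGF-β1 series against hours of TGF-β1 (horizontal axis), with the mean of the 2 arrays as a line. Itgae, Cdh1 and Myrip climbed through 24 h, Ctsg, Lyz2, Clec4e and Nolc1 declined step by step, Rasgrp3 was high from 4 h on, and Kit was lowest at 8 h and highest at 24 h.

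Adhesion genes of Langerhans-type dendritic cells and of epithelia were high at 24 h. Of 16 tested members of this list 8 were called higher and 0 lower, and the median difference was 1.33. Cdh1, which is E-cadherin itself, had 12.43 and 12.21 at 24 h, against 8.38 and 7.26 at 4 h, and 6.05 and 5.38 at 0 h. It rose 22.6-fold between 4 h and 24 h (adjusted p = 0.00082), while its step at 4 h against 0 h had an adjusted p of 0.058, and 0.0084 with the replicate block. Cldn1, a claudin of tight junctions, had 9.30 and 8.62 at 24 h, against 4.49 and 3.90 at 4 h, at least 15.6-fold higher (adjusted p = 0.00045). Tjp1, the scaffold of the same junctions, rose by 2.57 to a mean of 7.86 at 24 h, against 5.29 at 4 h. The receptor tyrosine kinase Axl, which binds Gas6 on dying cells and is known as a TGF-β1 target in Langerhans cells, rose by 3.43. Its values were 7.64 and 9.33 at 24 h, against 4.70 and 5.42 at 4 h (SE 0.60, adjusted p = 0.011). The 2 arrays at 24 h differed by more for Axl than for Cdh1 or Cldn1, yet neither overlapped the 4 h arrays.

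Other members of the same list did not pass the test. Cd207 (langerin), which defines Langerhans cells, averaged 5.13 at 24 h and 5.38 at 4 h (-0.25, adjusted p = 0.36), close to the lower end of the scale. Epcam, an epithelial adhesion molecule of Langerhans cells, averaged 6.21 at 24 h and 6.03 at 4 h (0.18, adjusted p = 0.71). Tyro3, a relative of Axl, averaged 5.21 and 5.44 at these times. The members called higher were therefore Itgae, Cldn1, Cdh1, Hepacam2, Axl, Tjp1, Il1r2 and Alox5ap. The count was 7 without replicate 2 of 24 h and 10 with the replicate block. On the separate arrays Cdh1 averaged 7.36 in cDC, 10.9 in pDC and 3.13 in CDP, and Cldn1 averaged 6.51 in cDC and lay at the floor of the scale in pDC and CDP.

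MHC class II genes rose together. All 17 members of the presentation list had a higher mean at 24 h than at 4 h, also after median centring or quantile normalization, and 11 were called higher, with a list median of 1.35. The alpha and beta chains that hold the peptide were among them: H2-Aa rose by 2.52 to a mean of 12.8, H2-Ab1 by 2.69 and H2-Eb1 by 2.58. H2-Ab1 had 10.57 and 11.28 at 24 h, against 8.20 and 8.27 at 4 h, and 8.44 and 7.91 at 0 h (adjusted p = 0.0017). Genes that assist or restrain loading rose as well: H2-DMa by 2.49 and H2-DMb2 by 2.31, and the genes of the restraining H2-O, H2-Oa by 2.32 and H2-Ob by 1.35. Ciita, the transactivator on which class II transcription depends, averaged 7.42 at 24 h and 5.99 at 4 h (1.43, adjusted p = 0.0024). Cd74, the invariant chain that guards the peptide groove, had 11.41 and 12.56 at 24 h, against 8.11 and 9.91 at 4 h (2.98, adjusted p = 0.014). Without replicate 2 of 24 h, Cd74 missed the threshold (2.40, adjusted p = 0.076) and the list count was 5, while it was 9 to 13 without any other single array. Enzymes of the list differed less: Ctsh rose by 1.09 and Ifi30, a thiol reductase, by 0.97, while Ctss, Ctsb, Ctsl, Ctsd and Lgmn differed by 0.16 to 1.28 and were not called. Ctsh was no longer called without replicate 2 of 24 h (0.91, adjusted p = 0.092) or without replicate 1 of 4 h (0.88, adjusted p = 0.051). Of the 17 members 8 were late only. H2 probe sets can share sequence between neighbouring genes of the family, so their single values are uncertain to that extent.

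Class II promoters hold a set of boxes, known as X and Y boxes, through which Ciita acts. The core of the Y box is a CCAAT sequence, which reads GATTGG on the other strand. RefSeq promoter windows (GRCm38.p6, 250 bases before to 50 after the start of the gene) existed for 6 of the 7 H2 genes called higher, and 5 of these held GATTGG on the strand of the gene. On both strands together the letters occur in 16.6% of all 27025 windows and in 20.7% of the windows of the genes tested. The stretches below run 5′ to 3′ on the strand of the gene with the match in capitals, and show that the match lies 44 to 91 bases before the start of each gene. H2-Aa lies at chr17:34287827-34287932 (minus strand), H2-Eb1 at chr17:34305747-34305852, H2-DMb2 at chr17:34145098-34145203, H2-Oa at chr17:34092275-34092380 and H2-Ob at chr17:34238787-34238892 (plus strand).
H2-Aa: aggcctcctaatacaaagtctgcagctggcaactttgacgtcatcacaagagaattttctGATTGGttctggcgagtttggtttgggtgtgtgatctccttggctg
H2-Eb1: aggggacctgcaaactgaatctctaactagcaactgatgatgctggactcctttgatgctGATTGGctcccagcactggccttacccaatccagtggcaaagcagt
H2-DMb2: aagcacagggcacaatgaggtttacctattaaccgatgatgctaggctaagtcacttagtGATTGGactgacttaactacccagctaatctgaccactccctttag
H2-Oa: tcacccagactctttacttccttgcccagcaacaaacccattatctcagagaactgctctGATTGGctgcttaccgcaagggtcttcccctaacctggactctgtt
H2-Ob: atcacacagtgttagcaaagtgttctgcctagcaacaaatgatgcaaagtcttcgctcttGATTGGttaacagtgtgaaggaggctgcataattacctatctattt
A match is a description of the letters and not a measured binding site, and no match was found for H2-DMa in its window.

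Of 28 tested transcription factors of dendritic cells, 6 were called higher and 2 lower between 24 h and 4 h. Irf4, needed for a branch of cDC, had 8.87 and 9.18 at 24 h, against 6.36 and 6.94 at 4 h, and 6.27 and 6.34 at 0 h (2.38, SE 0.26, adjusted p = 0.0018). Ahr, the aryl hydrocarbon receptor, had 10.76 and 9.93 at 24 h, against 8.04 and 6.65 at 4 h (2.997, SE 0.52, adjusted p = 0.011). Another probe set of Ahr gave 0.11. Zbtb46, a factor of the cDC lineage, averaged 7.11 at 24 h and 5.34 at 4 h (1.77, adjusted p = 0.0034). Irf4 kept its call without any single array, whereas Ahr lost it without replicate 1 of 24 h (2.58, adjusted p = 0.058).
Batf3, required for cross-presenting cDC, had 7.63 and 8.98 at 24 h, against 6.35 and 6.72 at 4 h (1.77, adjusted p = 0.03). Relb, a subunit of NF-κB, had 7.68 and 7.79 at 24 h, against 6.04 and 6.92 at 4 h (1.25, adjusted p = 0.021). Runx3, which acts with TGF-β1 in Langerhans cells, had 12.51 and 12.54 at 24 h, against 11.75 and 11.16 at 4 h (1.07, adjusted p = 0.017). Its mean was 10.35 at 0 h, a first step of 1.11 with an adjusted p of 0.099, and 0.035 with the block. Another probe set of Runx3 gave 0.32 at 24 h minus 4 h. Batf3 differed more in replicate 2 than in replicate 1. Without replicate 2 of 24 h their adjusted p was 0.090 for Batf3 (1.09), 0.095 for Relb (1.20) and 0.078 for Runx3 (1.05). Batf3 also missed the threshold without replicate 1 of 4 h (adjusted p = 0.090) or either replicate of 0 h (0.062), and Relb and Runx3 without replicate 1 of 24 h (0.076 and 0.071).

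Cebpb, a factor of granulocyte and macrophage genes, and Zeb2, which favours pDC and monocytes, were the 2 that fell. Cebpb had 8.00 and 7.71 at 24 h, against 9.35 and 10.10 at 4 h, and 11.38 and 11.27 at 0 h (-1.88, adjusted p = 0.012). Zeb2 fell by 1.25 and lost its call without replicate 1 or 2 of 24 h (-1.15 and -1.34, adjusted p = 0.12 and 0.088) or replicate 2 of 4 h (-1.04, adjusted p = 0.068). Cebpb lost it without replicate 2 of 24 h (-1.73, adjusted p = 0.067). Id2, an inhibitor of E proteins that favours cDC, had 13.35 and 12.99 at 24 h, against 12.56 and 11.34 at 4 h. This difference of 1.22 had an adjusted p of 0.11 without and 0.0049 with the replicate block. The 2 other probe sets of Id2 gave 1.77 and 1.84. Id2 was also called by limma on the mean of its probe sets (1.61, adjusted p = 0.016) and with the Gapdh covariate (1.12, adjusted p = 0.021). Spib, a pDC factor, stayed between 5.00 and 5.90 at both times (0.69, adjusted p = 0.086, and 0.019 with the block). Irf8 (-0.38, adjusted p = 0.45), Tcf4 (-0.67, adjusted p = 0.13), Spi1 (0.76, adjusted p = 0.51) and Gfi1 (0.08, adjusted p = 0.89) were not called, with an SE of 0.25 to 0.65. With the Gapdh covariate Tcf4 (-0.72, adjusted p = 0.013) and Spi1 (0.95, adjusted p = 0.021) were called, and Tcf4 also without replicate 2 of 4 h (-1.002, adjusted p = 0.022). Without replicate 1 of 4 h Spi1 gave -0.12.

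Among 18 tested cDC markers 6 were called higher, and among 16 pDC markers 4, with 0 lower in either list. Over all genes tested 7.61% were called higher and 5.23% lower. A higher mean at 24 h than at 4 h was found for 9 cDC and 11 pDC markers. The list medians were 0.05 and 0.55, and median centring made the cDC value -0.04. Itgax, the CD11c chain, had 10.46 and 11.40 at 24 h, against 7.11 and 8.34 at 4 h (3.21, adjusted p = 0.0042). Siglech, a pDC receptor, had 8.08 and 9.80 at 24 h, against 6.54 and 6.60 at 4 h (2.37, adjusted p = 0.038). Il7r, the interleukin-7 receptor, had 10.77 and 9.93 at 24 h, against 8.82 and 7.78 at 4 h (2.05, adjusted p = 0.023). The 2 arrays at 24 h differed most for Siglech. Its call was lost without replicate 2 of 24 h (1.51, adjusted p = 0.15) and without any array of 0 h or 4 h (adjusted p of 0.061 to 0.091). Il7r lost it without replicate 1 of 24 h (1.63, adjusted p = 0.11) or replicate 2 of 4 h (1.53, adjusted p = 0.050). With the replicate block 7 cDC and 7 pDC markers were called higher, 1 and 2 lower, against 13.5% and 10.4% of all genes tested.

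Maturation genes rose in part. Cd40, a receptor for T cell help, had 8.78 and 8.20 at 24 h, against 7.03 and 6.69 at 4 h (1.62, adjusted p = 0.004). Ccr7, which guides dendritic cells to lymph nodes, rose by 1.12, and the costimulatory ligands Icosl and Cd80 by 1.18 and 1.00. Together with Relb these were 5 of 15 tested members, and 0 were called lower. Cd86 differed by 0.12 (adjusted p = 0.87) and Cd83 by 0.95 (adjusted p = 0.058, and 0.0096 with the block). Of 11 tested chemokine receptors 3 were called higher and 1, Cx3cr1, lower, beside 7.61% and 5.23% of all genes tested. The list median was -0.04, and 5 of the 11 had a higher mean at 24 h than at 4 h. Ccr6, which answers to the epithelial chemokine CCL20, rose most: 9.53 and 10.79 at 24 h, against 5.99 and 6.41 at 4 h (3.96, adjusted p = 0.0024). Ccr1 rose by 1.82.

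Several cytokine and growth factor receptors rose late. Kit, the receptor for stem cell factor, had 8.97 and 8.72 at 24 h, against 5.98 and 6.12 at 4 h, and 7.43 and 7.08 at 0 h. Between these it had 6.07 and 5.48 at 8 h, and 6.58 and 5.78 at 12 h. Kit was lower on all 6 arrays of 4 to 12 h than on either 0 h array and higher on both 24 h arrays. The rise at 24 h against 4 h passed the test (2.80, SE 0.30, adjusted p = 0.0018), and so did 24 h against 0 h (1.59, adjusted p = 0.0092). The step at 4 h of -1.21 did not (adjusted p = 0.23, and 0.045 with the block), which kept Kit out of the class of genes that turn.
Il1r2, a decoy receptor for interleukin-1, moved in the same window: 9.43 and 9.94 at 24 h, 8.03 and 8.37 at 12 h, and 7.45 and 7.49 at 4 h (24 h minus 4 h 2.21, adjusted p = 0.0016). Flt3, the receptor of the ligand on which dendritic progenitors depend, rose by 0.83 (adjusted p = 0.013), and by 0.74 without replicate 2 of 24 h, where its adjusted p was 0.075. In all, 7 of 26 cytokine receptors were called higher and 0 lower, and 11 and 1 with the block. Csf1r, the receptor of macrophage colony-stimulating factor, had 13.54 and 13.17 at 24 h, against 13.20 and 12.67 at 4 h (0.42, adjusted p = 0.26).

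Alox5, the lipoxygenase that starts leukotriene synthesis, showed a still later step. It had 7.43 and 7.33 at 24 h, against 5.76 and 5.69 at 4 h (1.66, SE 0.15, adjusted p = 0.0012), and between 5.77 and 5.99 on the arrays of 8 and 12 h. Most of its difference thus lay between 12 h and 24 h. Its partner Alox5ap rose by 1.16, the leukotriene receptor Ltb4r1 by 1.09 and the prostaglandin synthase Hpgds by 2.17. Pla2g4a, which frees arachidonic acid, fell by 1.16, but not without replicate 2 of 24 h (-1.01, adjusted p = 0.075). In this list 4 of 15 were called higher and 2 lower.

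Genes of ribosome synthesis and Myc fell in part. Of 34 tested members 16 were called lower and 2 higher, the list median was -1.20, and 11 of the 16 were late only. Nolc1, a nucleolar chaperone, had 8.49 and 8.51 at 24 h, against 10.72 and 10.89 at 4 h, and 11.17 and 11.28 at 0 h (-2.31, SE 0.16, adjusted p = 0.00045). Srm, spermidine synthase and a classical Myc target, had 8.96 and 8.83 at 24 h, against 10.51 and 11.88 at 4 h (-2.30, adjusted p = 0.0078). In both genes the 24 h arrays lay close together and below both 4 h arrays. Gnl3 (nucleostemin) fell by 2.06, the box C/D proteins Nop58 and Nop56 by 1.92 and 1.84, and Dkc1 and Gar1, which build pseudouridine guides, by 1.61 and 1.57. Polr1b, a subunit of RNA polymerase I, fell by 1.47 and Utp20, of the small subunit processome, by 1.81. Npm1 and Ncl, the most abundant nucleolar proteins, differed by -0.36 and -0.41 and were not called (adjusted p = 0.20 and 0.50). Without the 3 arrays of low 5′ signal 25 members were called lower, and 12 to 21 without any single array.
Myc itself had 7.94 and 8.50 at 24 h, against 9.36 and 10.22 at 4 h, and 11.49 and 11.35 at 0 h (-1.56, adjusted p = 0.025). At 4 h against 0 h it differed by -1.63, which did not pass the test (adjusted p = 0.13). Its call at 24 h was lost without replicate 1 of 24 h (-1.28, adjusted p = 0.12), replicate 2 of 4 h (-1.14, adjusted p = 0.053) or a 0 h array (adjusted p = 0.052). The 2 members that rose were Mxd4 and Mxd1, which bind Max in place of Myc. Mxd4 rose by 2.198, and its other probe sets gave 2.07, 0.94 and -0.06. Mxd1 rose by 1.24, and its others gave 0.43 and -0.06.

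Myc and Max bind the E-box CACGTG, which reads the same on both strands. It occurred in 38 of 223 promoter windows of the late genes that fell (17.0%) and in 22 of 266 of those that rose (8.27%). Among the windows of all genes tested its share was 9.93%, and among all RefSeq windows 7.24%. Of the 13 ribosome genes called lower that had a window, Wdr43 and Utp20 held it, just behind the start of the gene. Both factors act in processing of the small ribosomal subunit. The stretches are chr17:71616207-71616262 for Wdr43 (plus strand) and chr10:88826765-88826802 for Utp20 (minus strand), GRCm38.p6, with the E-box in capitals.
Wdr43: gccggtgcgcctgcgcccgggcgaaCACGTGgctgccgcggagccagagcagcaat
Utp20: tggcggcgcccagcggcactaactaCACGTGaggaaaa
Wdr43 averaged 8.82 at 24 h and 10.1 at 4 h (-1.33, adjusted p = 0.025), and Utp20 averaged 8.47 at 24 h and 10.3 at 4 h (-1.81, adjusted p = 0.0053). These shares are a description of the letters and say nothing of binding.

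DNA replication genes fell in part, and mitotic genes were not called. All 38 replication genes had a lower mean at 24 h than at 4 h, also under both other scalings, and 15 were called, with a list median of -0.75. Cdc6, a loader of the replicative helicase, averaged 9.03 at 24 h and 10.3 at 4 h (-1.30, adjusted p = 0.0095). Gins1, of the same helicase, fell by 1.23, the helicase subunits Mcm6, Mcm2 and Mcm7 by 0.89, 0.81 and 0.67, and Fen1, a flap nuclease, by 1.01. Orc1, of the origin complex, had 6.92 and 6.73 at 24 h, against 8.51 and 7.96 at 4 h (-1.41, adjusted p = 0.034). Ccne2, the S phase cyclin E2, had 8.95 and 8.58 at 24 h, against 10.95 and 9.70 at 4 h (-1.56, adjusted p = 0.043). Both Orc1 and Ccne2 lost their call without any array of 0 h or 24 h and without replicate 1 of 4 h, with adjusted p of 0.060 to 0.17, as they did without the 3 arrays of low 5′ signal (0.094 and 0.056). The list count was 25 with the replicate block, 6 without either array of 0 h, and 4 and 2 without replicate 1 and replicate 2 of 24 h.
Among 36 genes of mitosis and the spindle limma called 0 (1 higher and 3 lower had an unadjusted p under 0.05), the median was -0.03, median centring and the replicate block gave 1 call each, and a Gapdh covariate gave 4. Mki67, a marker of cycling cells, averaged 12.4 at 24 h and 12.3 at 4 h (0.05, adjusted p = 0.87), and Top2a averaged 12.9 at both times. Of 17 cyclins and inhibitors 4 rose, among them the cyclin-dependent kinase inhibitors Cdkn1c (7.33 and 7.69 at 24 h, against 5.67 and 5.69 at 4 h) and Cdkn1b. Cdk6, a G1 kinase, had 11.17 and 11.15 at 24 h, against 12.22 and 12.62 at 4 h (-1.26, adjusted p = 0.0038).

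**Figure D3:**
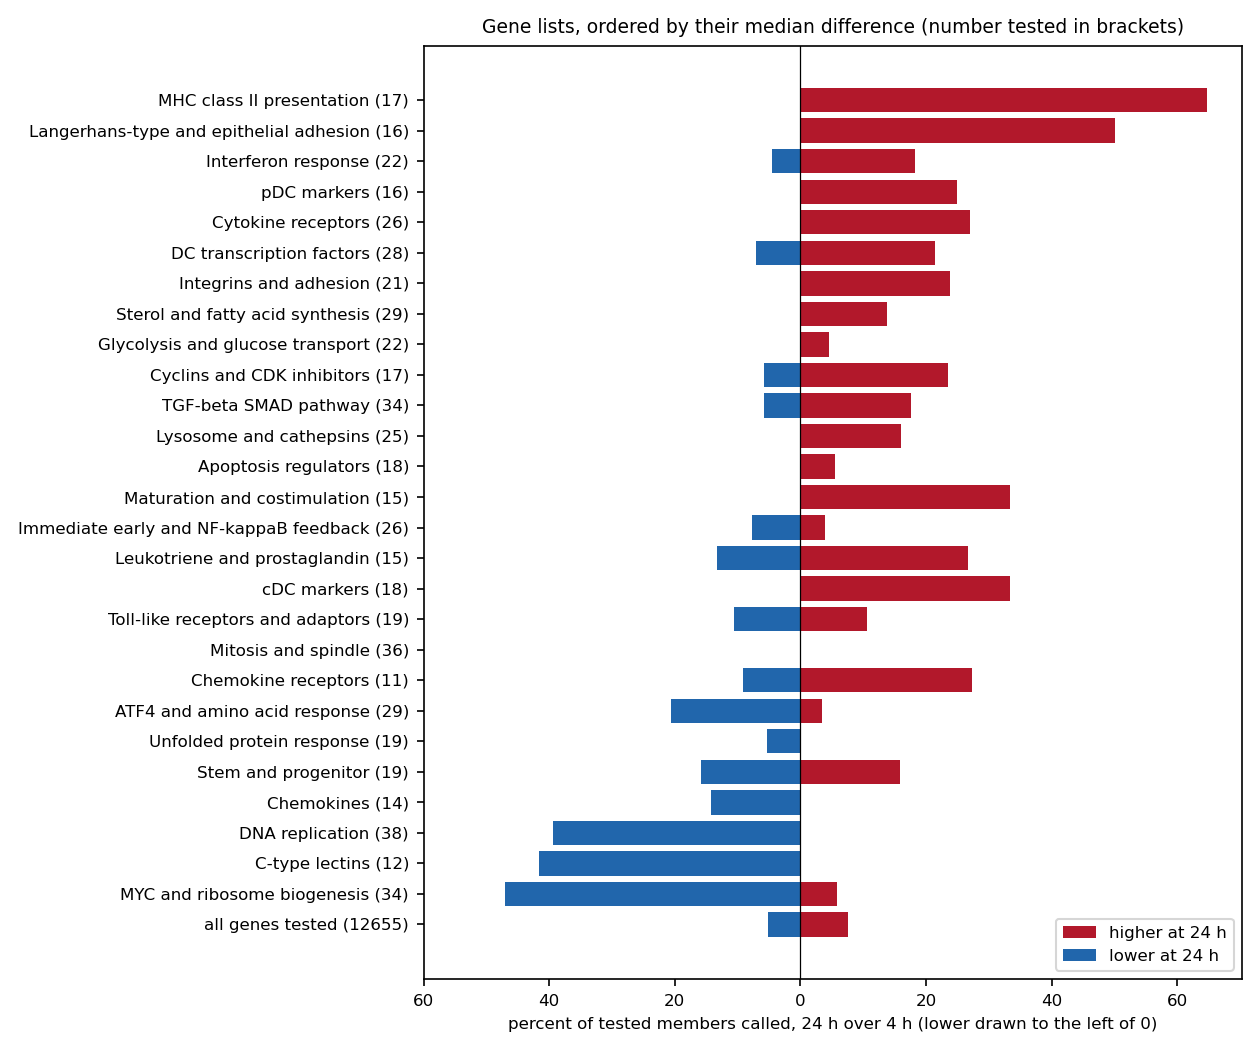
Percent of the tested members of each gene list called higher (to the right of 0) or lower (to the left) at 24 h over 4 h, with the number tested in brackets and all genes at the bottom. MHC class II presentation and Langerhans-type adhesion show the highest shares of increases, at 11 of 17 and 8 of 16, and ribosome biogenesis, C-type lectins and DNA replication the highest shares of decreases.

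The largest decreases included genes of granulocytes, monocytes and pathogen sensing. Ctsg, the granule protease cathepsin G, had 7.06 and 6.72 at 24 h, against 10.80 and 11.08 at 4 h (-4.05, SE 0.29, adjusted p = 0.00045). Hp, haptoglobin, had 6.53 and 6.07 at 24 h, against 9.33 and 10.94 at 4 h (-3.83, adjusted p = 0.003). Lyz2, lysozyme of myeloid cells, had 8.76 and 8.85 at 24 h, against 11.12 and 11.71 at 4 h (-2.61, adjusted p = 0.0017). All 3 genes were lower on both 24 h arrays than on either 4 h array. Lyz1, a near copy of Lyz2 whose probes may pick up both transcripts, fell by 2.53. Gja1, a connexin of gap junctions, fell by 4.20 on the probe set used, and of its other 5 probe sets 4 gave -4.28 to -1.80 and 1 gave 0.00. Afp, with 4.95 and 3.44 at 24 h, against 8.72 and 6.86 at 4 h, was at least 6.91-fold lower (adjusted p = 0.015), and without replicate 2 of 24 h its adjusted p was 0.078 (-2.84).
Afp encodes alpha-fetoprotein, a fetal serum protein. The remaining members of the 12 largest decreases were Tctex1d1, Clec4e, Clec4d, Tgfbi, Cth, Bcat1, Mmp8 and Cd302, with differences of -3.43 to -2.78. Mmp8, a neutrophil collagenase, fell by 2.79 but was not called without replicate 2 of 24 h or replicate 1 of 4 h (-2.19 and -2.28, adjusted p = 0.095 and 0.063).

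C-type lectins that sense microbes fell in 5 of 12 tested members, and 0 rose, with a median of -1.19. Clec4e (Mincle), which recognises mycobacterial glycolipid, had 5.43 and 4.88 at 24 h, against 8.61 and 7.64 at 4 h (-2.97, adjusted p = 0.004). Clec4d, its partner, had 7.07 and 5.93 at 24 h, against 9.99 and 8.93 at 4 h (-2.96, adjusted p = 0.012). Clec7a (dectin-1), the receptor for fungal glucan, fell by 2.08 to a mean of 6.04 at 24 h. Without replicate 2 of 24 h Clec4d was not called (-2.39, adjusted p = 0.062) and the list count was 3. Cd209a, which is a lectin of dendritic cells, was near 5 at all times and was not called (0.00, adjusted p = 0.99). Of 19 Toll-like receptor genes 2 rose and 2 fell, and 3 and 4 with the block. Over all genes tested 7.61% rose and 5.23% fell, and 13.5% and 10.4% with the block. Tlr1 was at least 1.85-fold lower, and the adaptor Irak2 rose by 1.12, though not without replicate 2 of 24 h (0.94, adjusted p = 0.052).

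Markers of other cell types moved too, and their part in the results was not tested. Over all genes tested 5.23% were called lower and 7.61% higher, and 10.4% and 13.5% with the block. Of 14 tested granulocyte markers Ctsg and Mmp8 fell and 0 rose. Their summed level was 11.7 and 13.1 on the 24 h arrays, against 12.1 and 13.6 on the 4 h arrays, so that the 2 times overlapped. Of 11 tested monocyte and macrophage markers Lyz2, Lyz1 and Cx3cr1 fell, and the summed level was 14.03 to 14.29 at 24 h and 14.45 to 14.76 at 4 h. The count of 3 became 6 of 11 with the replicate block or the Gapdh covariate and 5 without the low 5′ arrays. The macrophage markers Mrc1, Mertk, C1qa, C1qb, C1qc, Vcan and Marco were under 5 on all 10 arrays. The call of Cx3cr1 (-0.95, adjusted p = 0.047) was lost without replicate 1 or 2 of 24 h (adjusted p = 0.17 and 0.12), replicate 2 of 4 h (0.11) or either array of 0 h (0.075 and 0.076). Siglecf, the sole tested eosinophil marker, rose by 3.09, while Prg2, Epx, Il5ra, Ccr3 and Prg3 were under 5 on all 10 arrays. The eosinophil list summed to 11.6 to 11.9 at 24 h and 8.46 to 9.37 at 4 h. Of 5 tested erythroid markers limma called 0, with sums of 10.86 to 11.43 at 24 h and 11.82 to 12.11 at 4 h. B cell markers, 2 of 7 called, summed to 12.70 to 12.97 at 24 h and 12.09 to 12.13 at 4 h, with Ebf1 and Rag1 under 5 on all 10 arrays. Single members of other lists rose too, namely Vwf of megakaryocytes (2.58), Cd5 of T cells (1.68), Blnk and Ighm of B cells (1.47 and 0.80) and Gata2 of mast cells (1.20). Of these Vwf was called without any single array. The others lost their call without replicate 2 of 24 h (Cd5 1.40, Blnk 1.21 and Gata2 0.96, with adjusted p of 0.065, 0.050 and 0.11) or, for Ighm, without any of 5 arrays (adjusted p of 0.056 to 0.16) and on the mean of its probe sets (0.20).

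Amino acid metabolism was lower in part. Of 29 genes of the ATF4 and amino acid response 6 fell and 1 rose. Beside the lists here, 5.23% of all genes tested fell and 7.61% rose, and 10.4% and 13.5% with the block. Cth, which makes cysteine, had 4.33 and 4.62 at 24 h, against 7.29 and 7.32 at 4 h, at least 4.94-fold lower (adjusted p = 0.0021). Phgdh and Psat1, of serine synthesis, fell by 1.503 and 1.24 and Asns, of asparagine synthesis, by 1.28. Phgdh lost its call without replicate 2 of 24 h (-1.13, adjusted p = 0.058). The count of 6 was 2 without replicate 1 of 24 h and 3 without either array of 0 h. Bcat1, the cytosolic branched-chain transaminase, had 5.86 and 6.04 at 24 h, against 8.32 and 9.20 at 4 h (-2.81, adjusted p = 0.0024). In sterol synthesis 4 enzymes rose, Mvd by 1.72, Tm7sf2 by 1.35, Pmvk by 1.13 and Lss by 0.87, out of 29 tested. With the block 10 of that list were called higher, and without the low 5′ arrays 3. Mvd lost its call without either array of 24 h (1.75 and 1.70, adjusted p = 0.087 and 0.099) or replicate 1 of 4 h (1.17, adjusted p = 0.060), and Tm7sf2 without replicate 2 of 24 h (1.04, adjusted p = 0.075). Aldoc, a glycolytic aldolase, was the 1 member of its 22 genes that rose (4 with the block), with 10.73 and 11.69 at 24 h, against 7.73 and 8.43 at 4 h (3.13, adjusted p = 0.0026). Without the block, 1 of 22 lies below the 7.61% of all genes tested.
Of 22 interferon response genes 4 rose and 1 fell, and 11 rose with the block. The share that rose over all genes tested was 7.61%, and 13.5% with the block. Oasl2, an antiviral gene, had 6.29 and 5.93 at 24 h, against 4.02 and 4.97 at 4 h, at least 2.16-fold higher (adjusted p = 0.024), and lay at 5.58 and 5.04 at 0 h. Without either array of 24 h or replicate 1 of 4 h it missed the threshold (adjusted p of 0.066 to 0.11).

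In the TGF-β pathway 5 of 34 tested members rose at 4 h against 0 h, and 6 rose and 2 fell at 24 h against 4 h (9 and 4 with the block). Over all genes tested 0.569% rose at 4 h against 0 h. At 24 h against 4 h 7.61% of all genes rose and 5.23% fell, and 13.5% and 10.4% with the block. The falls in this list thus lie near the shares of all genes. Skil, a repressor of Smad proteins, had 12.32 and 12.02 at 24 h, against 12.06 and 11.40 at 4 h, and 9.74 and 9.44 at 0 h. Ski, its relative, had 8.66 and 8.99 at 24 h, against 8.87 and 9.68 at 4 h, and 7.57 and 7.08 at 0 h. Both were persistent, with differences of 0.44 and -0.45 between 24 h and 4 h (adjusted p = 0.32 and 0.37). Tgfbr1, the type I receptor, and Pmepa1, a feedback inhibitor, lay just outside the limit of 0.5. Tgfbr1 had 12.67 and 12.51 at 24 h, against 12.30 and 11.87 at 4 h, and 9.78 and 9.54 at 0 h (24 h minus 4 h 0.51, adjusted p = 0.12, and 0.039 with the block). Pmepa1 averaged 10.8 at 24 h, 10.2 at 4 h and 4.44 at 0 h (0.55, adjusted p = 0.10). The persistent genes just inside the limit were Rgs2 at 0.49 and Tubgcp5 at 0.47.
Smad7 had 8.88 and 7.95 at 24 h, against 8.50 and 7.38 at 4 h (0.47, adjusted p = 0.58). Its first step of 1.68 had an adjusted p of 0.33, and 0.015 with the block. Tgfbr2, the type II receptor, rose at 24 h against 4 h by 1.23 (adjusted p = 0.021), with 11.66 and 12.16 at 24 h, against 10.41 and 10.96 at 4 h. It was not called without replicate 2 of 24 h (0.98, adjusted p = 0.11) or replicate 1 of 4 h (0.96, adjusted p = 0.066). Another probe set of Tgfbr2 gave 0.13, and on the mean of its probe sets limma did not call it (0.48, adjusted p = 0.12). Smad3, the signal transducer, fell: 7.03 and 6.97 at 24 h, against 8.44 and 8.11 at 4 h, and 8.84 and 8.91 at 0 h (-1.27, SE 0.20, adjusted p = 0.007). Smurf1 and Smurf2, ubiquitin ligases of the pathway, rose by 1.35 and 0.90. Tgfbi, a matrix protein named for its induction by TGF-β, had 9.79 and 8.12 at 24 h, against 12.16 and 11.45 at 4 h, and 11.16 and 10.42 at 0 h (-2.84, adjusted p = 0.021). Its call was lost without replicate 2 of 24 h (-2.01, adjusted p = 0.091) or replicate 1 of 4 h (-2.49, adjusted p = 0.070). Id1 and Id3, inhibitors of E proteins, were not called between 24 h and 4 h (-1.30 and 0.23, adjusted p = 0.41 and 0.69). Id1 was called with the Gapdh covariate (-1.02, adjusted p = 0.035). It differed by -1.65 without the 3 arrays of low 5′ signal, where 4 h and 24 h keep 1 array each.

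Persistent genes had moved by 4 h and were near that level again at 24 h, and the class does not use the 8 h and 12 h arrays. Rasgrp3, an activator of Ras and Rap, had 9.44 and 8.85 at 24 h, against 9.05 and 8.49 at 4 h, and 4.83 and 4.76 at 0 h. F2r, the thrombin receptor, had 10.54 and 9.85 at 24 h, against 10.18 and 9.45 at 4 h, and 6.00 and 5.78 at 0 h. Abca1, which exports cholesterol, had 8.23 and 7.88 at 24 h, against 7.88 and 7.72 at 4 h, and 5.05 and 5.37 at 0 h. The 24 h and 4 h arrays overlapped for Rasgrp3 and F2r and met at 7.88 for Abca1. In between, Abca1 averaged 6.98 at 8 h and 7.04 at 12 h, below both other times. Klf2, a factor of quiescence, was persistently lower at 6.01 and 6.27 at 24 h, against 5.90 and 6.01 at 4 h, and 7.57 and 7.61 at 0 h. Gem, Slc37a3 and the apoptosis gene Pmaip1 (Noxa) completed the 4 that were lower at both times. Gem averaged 10.35, 8.05, 9.04, 8.76 and 7.64 at 0, 4, 8, 12 and 24 h, so that it lay nearer its 0 h level at 8 h than at 4 h. The count of 20 persistent genes was 35 with the block, 34 without the low 5′ arrays and 8 with a limit of 0.3 in place of 0.5. Without replicate 2 of 4 h it was 174, without replicate 1 of 4 h 10, without a 0 h array 4 or 5, and without a 24 h array 13.

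Growing genes moved early and again late. Hepacam2, an adhesion molecule, had 3.58, 5.94, 8.11, 8.71 and 10.1 as means at 0, 4, 8, 12 and 24 h. Dsp, desmoplakin of desmosomes, had 9.33 and 9.24 at 24 h, against 5.87 and 5.68 at 4 h, and 3.63 and 3.60 at 0 h (24 h minus 4 h 3.51, SE 0.16, adjusted p = 6.2e-05). Its level at 12 h was already 8.93 and 9.05. Cttn, cortactin of the actin cortex, had 9.66 and 9.06 at 24 h, against 7.24 and 6.63 at 4 h, and 3.68 and 4.04 at 0 h. Capn3, a calpain, and Chad, a matrix protein of cartilage, rose by 3.99 and 4.00 between 4 h and 24 h after 2.28 and 1.79 in the first 4 h. Bhlhe40, a basic helix-loop-helix repressor known as a TGF-β target, had 11.78 and 11.98 at 24 h, against 9.77 and 9.94 at 4 h (2.03, adjusted p = 0.00076). Junction and membrane genes F11r (JAM-A) and Spint1, a protease inhibitor of epithelia, were in the same class, as was the metalloproteinase Mmp14. Bmf, an apoptosis activator, rose 4.75-fold but another of its probe sets gave -0.42. The single growing gene that fell was Car12, a carbonic anhydrase, with 5.65 and 5.31 at 24 h, against 6.83 and 6.73 at 4 h, and 7.86 and 7.92 at 0 h. There were 50 growing genes with the block and 19 on the mean of all probe sets. Without replicate 2 of 4 h there were 64, without replicate 1 of 4 h 12, without a 0 h array 5 or 6 and without replicate 1 of 24 h 20.

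Turning genes were rare. The gene that returned was Zbed5, with 4.74 and 4.78 at 24 h, against 6.32 and 6.01 at 4 h, and 5.04 and 4.88 at 0 h, at least 2.24-fold lower at 24 h than at 4 h (adjusted p = 0.0046). Limma placed 0 genes in the class that turns, and 31 met its conditions at an unadjusted p under 0.05, 26 of them higher at 24 h. With the replicate block Kit and Cyria turned upward and Naa16 downward, 3 genes in all, and 6 returned. Without the low 5′ arrays 8 returned and 2 turned. When replicate 2 of 4 h was left out, so that the lone 4 h array was the one with low 5′ signal, 272 genes returned and 52 turned. When replicate 1 of 4 h was left out, 0 returned and 0 turned, and leaving out replicate 2 of 24 h or a 0 h array gave 0 returned as well.

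The late genes were then set beside the arrays of differentiated cells. Their values entered the choice of 1 probe set per gene, though not the calls that define the classes. Of the 339 late genes that rose, 269 were tested there, and 164 (61.0%) were called higher in cDC than in CDP, against 18.7% of all 8900 genes tested. In pDC 158 (58.7%) were called higher than in CDP, against 21.7% of all genes. The late genes that fell showed still higher shares. Of 257 tested, 220 (85.6%) were called lower in cDC than in CDP, against 29.3% of all genes, and 232 (90.3%) lower in pDC, against 31.6%. Opposite calls were few, with 13 and 21 of the late genes that rose and 7 and 2 of those that fell. Between the cell types, 74 of the 269 rising genes were higher in cDC than in pDC (27.5%, against 12.8% of all genes) and 54 were lower (20.1%, against 12.7%). Of the 21 tested growing genes that rose, 11 were higher and 4 lower in cDC than in CDP, and 10 higher and 5 lower in pDC. Of the 16 persistent genes that rose, 4 were higher and 1 lower in cDC, and 2 higher and 5 lower in pDC. Genes in a class share the culture, and neighbours in a pathway are not independent, so these shares carry no test. A gene could enter that fit on its CDP arrays alone, which favours a lower call, or on its cDC or pDC arrays alone, which favours a higher one. Late genes that did not pass the filter are left out of these shares. The filter can therefore raise the shares in both directions. The late genes that fell had a median of 9.91 at 0 h and were not matched for level with all genes. With no filter on low values, 128 and 118 of all 339 genes that rose were called higher in cDC and in pDC. Of all 269 that fell, 187 and 208 were then called lower. The fit without a filter covered 18193 genes, and limma's prior SD was 0.0051 there, against 0.2263 in the filtered fit. No share over all genes of that fit is given, so its counts cannot be set against the shares above.

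**Figure D4:**
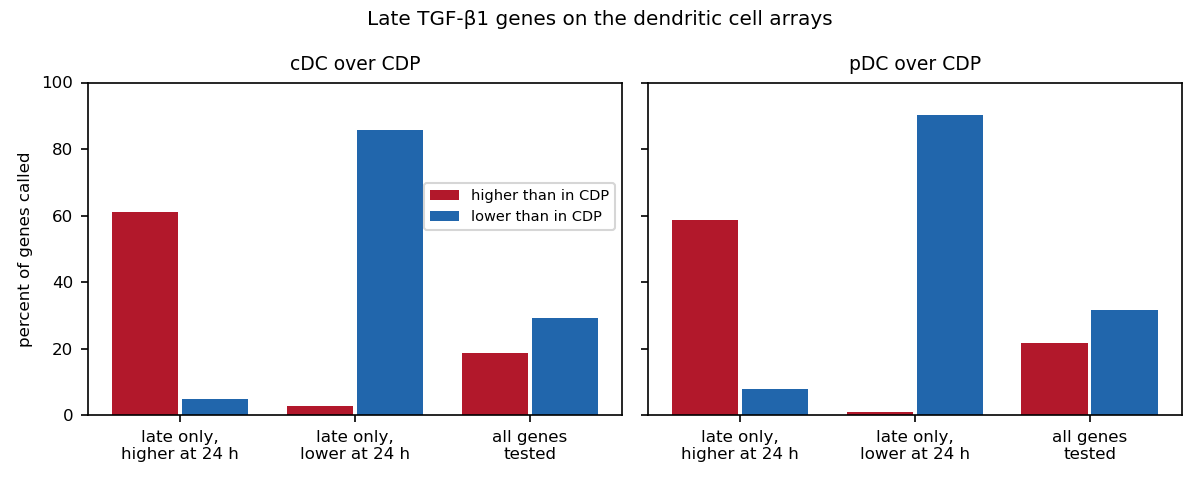
Percent of genes called higher (left bar of each pair) or lower (right bar) in cDC over CDP and in pDC over CDP on the separate arrays, for the late genes that rose, the late genes that fell and all genes tested. Of the late genes tested there, those that rose were mostly higher in both cell types (61.0% and 58.7%). Those that fell were mostly lower (85.6% and 90.3%).

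Levels of single genes on these arrays follow. H2-Ab1 averaged 14.2 in cDC and 10.9 in pDC, against 5.57 in CDP, and Itgax 10.5 in cDC and 11.2 in pDC, against 5.34 in CDP. Kit averaged 11.1 in cDC and 5.96 in pDC, against 5.04 in CDP, and Ctsg 3.004 in cDC and 2.68 in pDC, against 13.3 in CDP. Other genes that rose with TGF-β1 were at or near the floor in all 3 cell types. Myrip lay at the floor in cDC and pDC and averaged 2.55 in CDP, while Gna14 and Dsp lay at the floor in all 3. Lyz2 averaged 13.2 in cDC and 9.53 in pDC, against 11.8 in CDP, and neither difference was called (1.38 and -2.27, adjusted p = 0.50 and 0.25). These arrays were labelled with another kit from 1 µg of RNA where the TGF-β1 series used 250 ng, and levels are not compared across the sets.

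Replicates were also followed one by one. Of the 125 genes named by rule, 103 were called, and in all 103 the 24 h and 4 h arrays did not overlap (45.7% of all genes tested). That fixes an equal sign within both replicates, so the values by replicate describe sizes. The smallest difference among them was 0.52 in size within replicate 1 and 0.58 within replicate 2. All 103 were called with the replicate block, 61 without any single array of 0, 4 or 24 h, and 42 were lost without at least 1 array.

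**Figure D5:**
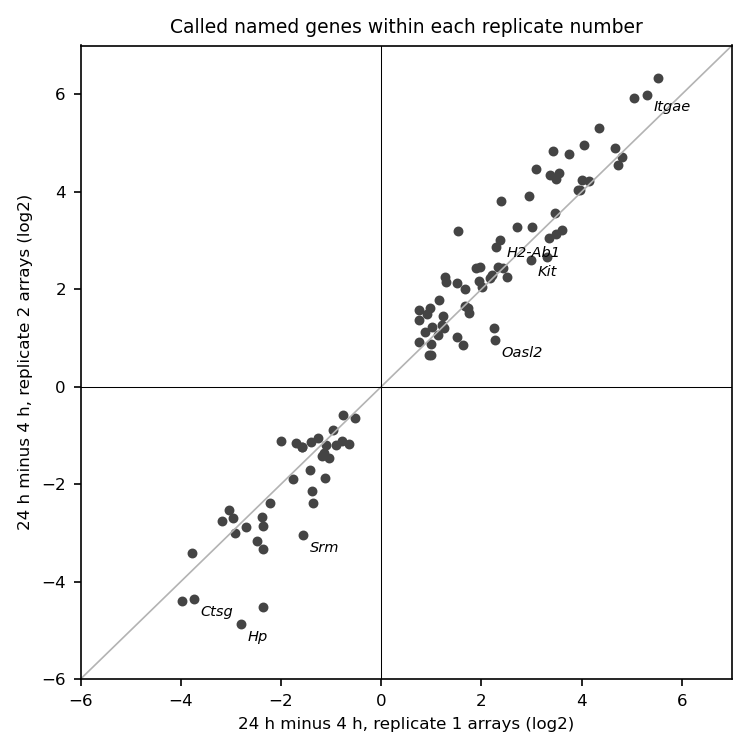
Difference of 24 h minus 4 h (log2) of the 103 called named genes within the replicate 1 arrays (horizontal axis) and within the replicate 2 arrays (vertical axis), with the line of equality. The highest point is Gna14, at 5.52 and 6.34, and Hp is among the low ones, at -2.80 and -4.87.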

How the data were processed

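RNA of 20 samples was measured on Affymetrix whole-genome mouse arrays. The deposited values are the authors' log2 intensities, and the submitters' processing notes name GCRMA without a version. The 10 TGF-β1 arrays had medians of 5.29 to 5.36 and no shared floor, whereas the other 10 arrays shared a floor of 2.25. Whether the sets were processed together is not stated. Of 45101 probe sets 34945 had 1 gene symbol after the 64 controls were left out. A further 932 had several symbols and 9211 none, and some controls are among these. For each of 18193 genes the probe set of highest mean across the 20 arrays was taken.

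The tests used limma 3.58.1 under R 4.3.3 (lmFit, then eBayes, with no scaling added) on the 10 TGF-β1 arrays, and separately on the 8 one-cycle arrays. Genes above 5 on at least 2 arrays of a fit were tested, two-sided, with Benjamini-Hochberg adjustment over all of them and a threshold of 0.05. The fit was tested on simulated data. No 2 arrays held identical values. Deviations from the time means correlated between equal replicate numbers at 0.27 to 0.85 for every pair of times. The correlation was 0.67 to 0.85 among 4, 12 and 24 h, where replicate 1 had low 5′ signal. For the other pairs it was 0.27 to 0.54. Blocked values are given where they change a call or move a count by over 1.5 times.

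The named genes are the 12 largest increases and decreases among called genes with no overlap of arrays, then at most 2 called genes from every list in each direction, at most 6 from every time class, and a set of regulators. Tjp1, Zbtb46, members of the lists given by value, and the genes of the turning class were named beside them after their values were seen. The lists, classes and named genes were chosen with earlier results of these data known. Promoter windows are from RefSeq. Alternatives were the replicate block, other scalings, filters, probe set means, limma's trend, single arrays left out, the low 5′ arrays left out, and a Gapdh covariate. Scalings and single arrays for the lists were added after the data were seen. The in vivo CDP arrays were not used here.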

Additional observations from a re-analysis of the deposited data

How the results depend on the processing

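Leaving out single arrays and fitting the 4 arrays alone moved the counts most, and the cause was not tested. With the replicate block, called genes numbered 3026 at 24 h against 4 h, 153 at 4 h against 0 h and 3810 at 24 h against 0 h. The block changed no call of a named gene among the 103, but it leaves their differences as they are and changes only the SE. The Gapdh covariate gave 3987, 204 and 3917 for these comparisons. Without the 3 arrays of low 5′ signal 4 h against 0 h gave 142 and 24 h against 0 h gave 3971. The 4 arrays of 24 h and 4 h alone gave 0, with fewer arrays to estimate the spread. The median SE was 0.281 in that fit and 0.224 in the fit of all 10 arrays. Single arrays left out gave 711 to 2764, 17 to 1320 and 936 to 3349.

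Late genes that rose numbered 630 at a size limit of 1.5-fold and 225 to 400 without single arrays. Those that fell numbered 469 at that limit, 431 without the low 5′ arrays and 142 to 338 without single arrays. Persistent genes numbered 35 with the block, 34 without the low 5′ arrays, 37 with the covariate, 8 at a limit of 0.3, and 4 to 174 without single arrays. Growing genes numbered 50 with the block, 57 with the covariate, 19 on probe set means, and 5 to 64 without single arrays. Genes that returned numbered 6 with the block, 8 without the low 5′ arrays, 4 with the covariate and 3 at 1.5-fold. They numbered 2 each with no filter, limma's trend and probe set means, 0 after median centring or quantile normalization, and 0 to 272 without single arrays. Genes that turned numbered 3 with the block, 2 without the low 5′ arrays, 4 with the covariate, 1 with no filter, and 0 to 52 without single arrays.

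In the lists, ribosome genes called lower numbered 25 without the low 5′ arrays and 12 to 21 without single arrays. Replication genes numbered 25 with the block and 2 to 15 without single arrays, class II genes 5 to 13, lectins 3 to 6 and amino acid genes 2 to 7. Scalings and single arrays for lists were chosen after seeing the data. Differences that changed sign belonged to genes not called. Cpd gave 0.15 on probe set means and -0.25 to 0.054 without single arrays. Gfi1 gave -0.0081 centred, -0.020 after quantile normalization and -0.35 to 0.51 without single arrays. Without single arrays Pmaip1 gave -0.037 to 0.53, Id3 -0.19 to 0.65, Smad7 -0.084 to 1.03 and Spi1 -0.12 to 1.63. With 2 arrays per time, precision is limited by their number. Fits without the low 5′ arrays or without a single array keep 1 array at the times concerned, and so hold no spread for them.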
